A study of Mus musculus with 12 samples.

Results

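Hepcidin, encoded by Hamp, is a peptide hormone that liver cells secrete. It binds ferroportin (Slc40a1), the exporter that releases iron from cells, and causes its breakdown, so that more hepcidin means less iron entering the blood. Hepatocytes set Hamp transcription through sensors of circulating iron (Hfe, Tfr2 and the co-receptor Hjv), through BMP ligands such as Bmp6 that act on Smad proteins, and through IL-6 and Stat3 during inflammation.

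The genes described here are Hamp, its sensors and regulators (Hfe, Tfr2, Tmprss6, Smad7 and Id1), the exporter Slc40a1, and the genes for iron uptake, transport and storage (Tfrc, Trf and Fth1). They were chosen by name, as the rows of the expression table whose Ensembl identifier carries 1 of these symbols. All 10 were among the 12086 genes of the table, and all 10 passed the filter on low values.

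RNA was sequenced from livers of wild type male C57BL/6 mice killed at 12 weeks of age (postnatal day 84) after a fast. Dams ate either control RM1 chow, with 7% simple carbohydrate and 3% lipid, or an obesogenic diet, with 10% simple carbohydrate and 20% lipid and sweetened condensed milk beside it, before mating and until weaning. Sons were weaned on day 21 onto RM1 or the obesogenic diet, and litters had been set to 6 pups. The first letter of a group is the dam's diet and the second the son's (C control, O obesogenic). CC had 3 libraries, CO had 2, OC had 3 and OO had 3, each taken as 1 animal. The sources used here do not say which sons shared a dam.

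Values are gene counts divided by 1 factor per library and lie close to CPM, and they are called scaled counts below. Libraries held between 3976158 and 27837609 recovered reads. Differences are log2 differences between group means of log2(value + 0.5), with the standard error (SE) or the 95% confidence interval (CI) of limma's fit. A gene is called where its limma p, adjusted over all 12086 genes, lay under 0.05. The summed level of 9 hepatocyte markers lay between 53134 and 78162 in the 11 libraries (Alb was not analysed here). Exocrine pancreas markers, 11 of 13 measured, were highest in OC.0 (a sum of 6219), then CO.1 (3933) and CC.1 (929), and the remaining 8 libraries had 7.46 to 133. Acute phase transcripts, 17 of 17 measured, summed to 87931 in CO.1 and 62086 in OC.1, against 19398 to 31873 elsewhere. Kupffer cell and macrophage markers, 12 of 12 measured, had sums of 427 to 568 for CC, 665 to 691 for CO, 494 to 779 for OC and 727 to 733 for OO. In whole liver, fewer cells of a type and less RNA per cell cannot be told apart.

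The sequences just upstream of Hamp and of its near-identical copy Hamp2 are shown because the BMP and the Stat3 arms are known to act on hepcidin through letters in this stretch of Hamp, of which Hamp2 holds only those of the Stat3 motif. They are the 250 bases before each RefSeq start on build GRCm38.p6, minus strand, chr7:30944030-30944279 for Hamp and chr7:30924182-30924431 for Hamp2. Capitals mark GGCGCC, the core of the BMP-responsive element, and TTCTTGGAA, which matches the Stat3 motif TTCNNNGAA.
Hamp: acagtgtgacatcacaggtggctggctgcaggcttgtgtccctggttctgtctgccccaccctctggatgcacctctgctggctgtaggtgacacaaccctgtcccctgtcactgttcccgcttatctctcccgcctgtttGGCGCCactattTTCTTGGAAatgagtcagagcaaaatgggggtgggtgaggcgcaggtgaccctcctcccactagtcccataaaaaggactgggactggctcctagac
Hamp2: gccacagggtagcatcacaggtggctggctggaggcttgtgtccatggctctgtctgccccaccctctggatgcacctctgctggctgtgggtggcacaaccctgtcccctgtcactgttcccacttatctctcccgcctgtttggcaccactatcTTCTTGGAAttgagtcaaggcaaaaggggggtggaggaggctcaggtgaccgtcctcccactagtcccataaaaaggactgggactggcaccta

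The upstream sequences of Hamp and Hamp2 were 89.7% identical over 253 aligned columns. In Hamp the first base of GGCGCC lay 109 bases upstream of the start, and that of TTCTTGGAA 97 bases upstream. At the place aligned with GGCGCC, Hamp2 carried the substitution G4A, with Hamp's base first and positions counted from 1 at the 5′ end of the motif. Both strands were searched and the motifs do not overlap in Hamp. Of 32851 mouse promoters in the RefSeq table, 9.59% held GGCGCC in the same 250-base window, 7.02% held TTCNNNGAA and 0.368% held both. Promoters of Tfr2, Hfe, Tfrc and Fth1 were matched too, and among them only 1 of the Tfrc starts had a match, to GGCGCC, 89 bases upstream. A match describes letters in a window and does not show a bound site.

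Of the 10 genes, Hamp had the largest log2 difference between offspring diets, in sons of either kind of dam. In CC it stood at 415.6, 466 and 455 scaled counts, and in CO, the sons of control dams that ate the obesogenic diet, at 58.7 and 62.9. In OC, the sons of obesogenic-diet dams on chow, the values were 289, 305.7 and 279, and in OO they were 31.2, 106 and 98.7. Every library from a son on the obesogenic diet lay below every library from a son on chow, and the CC and OC libraries did not overlap either.

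**Figure D1:**
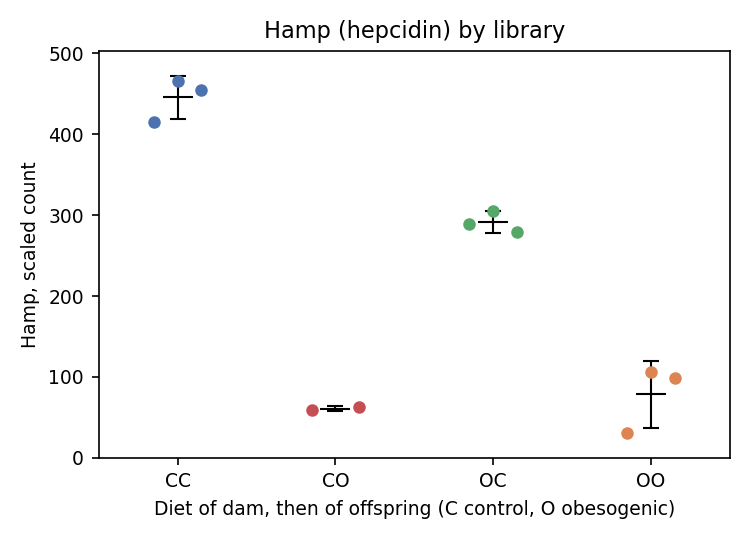
Scaled count of Hamp (vertical axis, linear from 0) in each library, by group; points are libraries, the dash is the group mean and the bar its SD. The CO and OO points lie between 31.2 and 106, and the CC and OC points between 279 and 466.

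Among sons of control dams, Hamp averaged 446 ± 26.5 (SD, n = 3) in CC and 60.8 ± 2.97 (SD, n = 2) in CO. It fell by 2.86 on the log2 scale in CO (SE 0.387, 7.28-fold lower, limma adjusted p = 0.00917). Among sons of obesogenic-diet dams it averaged 291 ± 13.5 (SD, n = 3) in OC and 78.8 ± 41.4 (SD, n = 3) in OO, where it fell by 2.07 (SE 0.346, 4.19-fold lower, limma adjusted p = 0.0437). Averaged over both kinds of dam, Hamp fell by 2.47 on the obesogenic offspring diet (SE 0.259, 5.52-fold lower, limma adjusted p = 8.06e-04). This average was called in all 23 alternative analyses. The 2 single comparisons were less firm. Leaving out the library CO.1, which keeps a single CO library, took the adjusted p of the CO comparison to 0.0542 at a log2 difference of -2.91. The OO comparison lost its call in 13 of 24 alternatives, in which the log2 difference lay between -2.10 and -1.90.

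The dam's diet gave no called difference in Hamp. OC lay below CC without overlap, by a log2 difference of -0.61 (CI -1.37 to 0.14, 1.53-fold lower, limma adjusted p = 0.923). The fit shares its spread over all groups. Leaving out OO.0, a library of neither group, took the SE from 0.346 to 0.106, and the difference was still not called (limma adjusted p = 0.9221). OO and CO overlapped, with a log2 difference of 0.18 (limma adjusted p = 0.967). The order of the group means was CC, OC, OO and CO, and in it only the step from OC to OO passed the test. The difference between the offspring diet effects of the 2 kinds of dam, the interaction, was 0.79 on the log2 scale (CI -0.34 to 1.93, limma adjusted p = 0.936). Without OO.0, the lowest Hamp library of all, the interaction was 1.36 with a limma adjusted p of 0.0143.

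Counted over the 10 genes, 1 was called in CO against CC (Hamp), where 1.79% of all genes were called. Likewise 1 was called in OO against OC (Hamp), where 0.165% of all genes were called, and 2 in the average offspring diet effect (Hamp and Slc40a1, both lower), where 3.96% were. None was called in OC against CC, where 0.0% of all genes were called (636 had an unadjusted limma p under 0.05, and edgeR and DESeq2 called 0) and no member had an unadjusted limma p under 0.05. None was called in OO against CO (0.0414% of all genes), in the average maternal diet effect (0.0331%) or in the interaction (0.0331%), and in each of these 0 members had an unadjusted limma p under 0.05; edgeR and DESeq2 also called 0 in these 4 comparisons. The median log2 difference of the 10 genes was -0.33 in CO against CC, -0.28 in OO against OC and -0.26 in the average offspring diet effect, beside medians of all genes within 0.01 of 0.

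Hamp, Id1, Slc40a1, Hfe and Fth1, 5 of the 10 genes, had every CO library below every CC library, which 17.9% of all genes also had. In OO against OC only Hamp had that order, as did 6.14% of all genes, and in OC against CC again only Hamp, as did 6.14% of all genes. OO lay wholly below CO for Tfr2 and Trf, against 9.48% of all genes, and wholly above it for Tmprss6 and Id1, against 10.5%. Hamp was the only member lower without overlap in both offspring diet comparisons, a pattern that 345 of 12086 genes (2.85%) had.

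**Figure D2:**
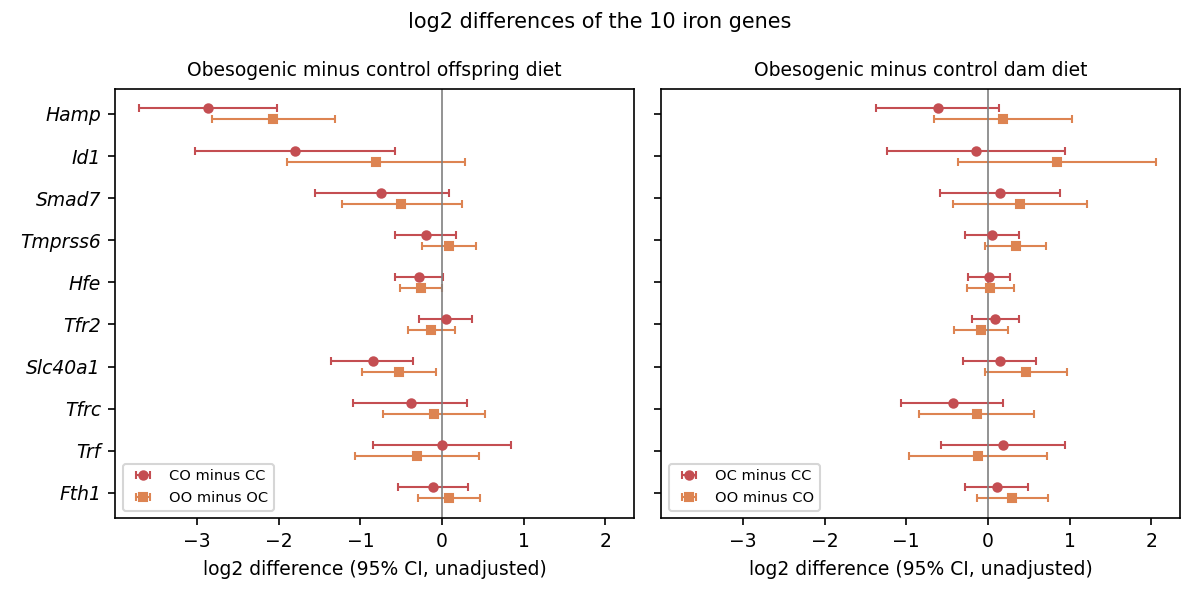
Log2 difference (horizontal axis) of each of the 10 genes with its unadjusted 95% confidence interval, for offspring diet on the left and dam diet on the right; circles are sons of control dams (left) or sons on chow (right), squares the other stratum. On the left the Hamp points lie at -2.86 and -2.07, and on the right every interval crosses 0.

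Hamp2, the second mouse hepcidin gene, was much lower than Hamp. It stood at 5.39, 2.06 and 0.97 in CC, 2.33 and 0.65 in CO, 3.76, 1.22 and 0.59 in OC and 2.54, 4.98 and 14.7 in OO, which are 3 to 90 recovered reads per library. The OO libraries lay above both CO libraries, the groups overlapped in the other 3 comparisons of 2 groups, and limma called none of the 7 comparisons of Hamp2. Its transcript is 92.4% identical to that of Hamp, and 60 of the 361 windows of 50 bases in the Hamp transcript (16.6%) occur unchanged in Hamp2. The sources used here do not say how the authors' counting divided such reads. Hamp2 made up 0.21% of the pair's summed value in OC.2 and 13% in OO.2. With the pair summed, an analysis added after the data were seen, the log2 difference was -2.84 in CO against CC (limma adjusted p = 0.0094) and -1.95 in OO against OC (limma adjusted p = 0.0611).

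The sensors of circulating iron differed little. Hfe, a membrane protein that signals transferrin saturation to the hepcidin gene, stood at 66.3, 59.8 and 52.8 in CC, 50.2 and 47.4 in CO, 56, 61.7 and 61.5 in OC and 44.7, 48.9 and 56.2 in OO. The CO libraries lay below all CC libraries, whereas OO and OC overlapped at the edge. The average offspring diet effect on Hfe was -0.27 on the log2 scale (SE 0.090, limma adjusted p = 0.121). Tfr2, the second transferrin receptor and a partner in iron sensing, stood at 330, 373 and 393 in CC, 370 and 380 in CO, 348, 467 and 358 in OC and 343, 358 and 360 in OO. Its average offspring diet effect was -0.04 (limma adjusted p = 0.861). None of the 12 listed BMP receptors, co-receptors and Smads was called in any of the 7 comparisons by limma, edgeR or DESeq2. In the average offspring diet effect 2 had an unadjusted limma p under 0.05, and after Hfe the smallest p was that of Bmpr1a, a type I BMP receptor (log2 difference 0.24, limma adjusted p = 0.198).

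Upstream of these, the transcript of Bmp6, the BMP ligand that sinusoidal endothelial cells make in response to iron, was lower on the obesogenic offspring diet. It stood at 6.82, 7.29 and 5.53 in CC, 2 and 2.4 in CO, 6.23, 4.87 and 6.17 in OC and 2.57, 2.21 and 3.1 in OO, from 8 to 77 recovered reads. All 5 libraries of sons on the obesogenic diet lay below all 6 of sons on chow. Bmp6 fell by 1.38 on the log2 scale in CO (2.60-fold lower, limma adjusted p = 0.0175) and by 1.19 in the average offspring diet effect (SE 0.150, 2.28-fold lower, limma adjusted p = 0.00218). In OO against OC the log2 difference was -1.001 (limma adjusted p = 0.113; DESeq2 called it). The average was called in all 23 alternatives; the CO comparison lost its call in 7 of 24, among them without CC.0, CC.2, CO.0 or CO.1, with adjusted p values up to 0.0946. The summed level of 10 sinusoidal endothelium markers lay between 500.0 and 578 in all libraries. Bmp2, the other endothelial BMP ligand known to drive hepcidin, had an average offspring diet effect of -0.15 (limma adjusted p = 0.531). Of 9 measured BMP and activin ligands, Bmp6 was the single one that limma called, and Inhbe, an activin subunit made by hepatocytes, had a log2 difference of 0.88 (limma adjusted p = 0.054). DESeq2 on the recovered reads called both Bmp6 and Inhbe in CO against CC and in the average.

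Among the inhibitors of BMP signalling to hepcidin, Tmprss6, the membrane protease that cuts the hepcidin co-receptor Hjv, stood at 343, 448 and 380 in CC, 398 and 287 in CO, 381, 389 and 440 in OC and 412, 407 and 468 in OO. Its groups overlapped in both offspring diet comparisons, and the average effect was -0.05 (limma adjusted p = 0.847).

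Id1 and Smad7 are genes that BMP signalling through Smad proteins switches on in hepatocytes, and Smad7 in turn blocks that signalling. Id1 stood at 4.91, 29.2 and 10.4 in CC, 2.67 and 3.27 in CO, 10.8, 7 and 14.7 in OC and 3.87, 6.08 and 7.84 in OO. Both CO libraries lay below every CC library, but CC alone spanned 4.91 to 29.2. The log2 difference of Id1 was -1.80 in CO against CC (limma adjusted p = 0.126) and -1.30 in the average offspring diet effect (SE 0.374, limma adjusted p = 0.0757). DESeq2 on the recovered reads called both, with adjusted p values of 0.0070 and 0.0019, and limma called the average without CC.0 (-1.59, adjusted p = 0.0285) and with array weights (adjusted p = 0.0309). Smad7 stood at 7.29, 23.4 and 16.6 in CC, 7.5 and 9.17 in CO, 13.7, 16.4 and 17.5 in OC and 8.85, 14.9 and 10.1 in OO. CC.0 was the lowest of all libraries for Smad7, and the average offspring diet effect was -0.62 (limma adjusted p = 0.203). Without CC.0 it was -0.85 and called (limma adjusted p = 0.0307).

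Most of the listed BMP-Smad targets, with Id1 counted again, lay on the same side. Of 8 measured (Id4 was not analysed here), 7 had log2 differences below 0 in CO against CC, in OO against OC and in the average, with medians of -0.77, -0.45 and -0.66, and 0 were called by limma in any of the 3. In the average, 6 of the 8 had an unadjusted limma p under 0.05, edgeR called 0 and DESeq2 called 2, Atoh8 and Id1. Atoh8, a transcription factor known to act on hepcidin, had the smallest p of the list: it stood at 15.8, 25.2 and 23.9 in CC, 10.2 and 10.5 in CO, 20.4, 13.2 and 21.3 in OC and 16.1, 16.6 and 8.99 in OO. Its average offspring diet effect was -0.71 (SE 0.195, limma adjusted p = 0.067).

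In the inflammatory arm, which is known to raise hepcidin, 2 of 9 listed genes were called in CO against CC, Stat3 and Il6st. Stat3, the transcription factor of this arm, rose by 0.96 in CO (1.95-fold higher, limma adjusted p = 0.0414) and by 0.62 in the average (limma adjusted p = 0.0282). Il6st, the shared receptor chain gp130, rose by 0.74 in CO (1.67-fold higher, limma adjusted p = 0.0303) and by 0.41 in the average (limma adjusted p = 0.036). None of the 9 listed genes was called in OO against OC. There the log2 difference of Stat3 was 0.28 (limma adjusted p = 0.772) and that of Il6st 0.07 (limma adjusted p = 0.932). Il22ra1, the receptor chain for IL-22, fell by 1.04 in the average (2.05-fold lower, limma adjusted p = 0.0185), and Cebpb, a transcription factor of the acute phase, rose by 0.52 (limma adjusted p = 0.0433). Thus 3 of 9 genes in the IL-6 and Stat3 list were called in the average, and 2 of 9 in the list of liver transcription factors that bind the hepcidin promoter, with Stat3 in both. Without CO.1, the library with the highest acute phase level, neither Stat3 nor Il6st was called, in CO against CC or in the average. With OC.1 left out beside CO.1, the average of Stat3 was called (0.54, limma adjusted p = 0.0363) and that of Il6st was not (limma adjusted p = 0.1600). In the average Stat3 lost its call in 7 and Il6st in 11 of 23 alternatives, mostly those that left out a library. In CO against CC Stat3 lost its call in 10 and Il6st in 6 of 24 alternatives. For both genes these included the groups compared alone and the fits without CC.0 or CC.2. The call of Cebpb was lost in 9 of 23, with adjusted p values up to 0.2266 and 7 single libraries among them (CC.1, CC.2, CO.0, CO.1, OC.0, OC.1 and OO.0), and that of Il22ra1 without CC.2 or CO.0, with adjusted p values up to 0.0555.

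In the 2 libraries with high acute phase levels, Hamp lay near the other libraries of its group. CO.1 had summed acute phase transcripts of 87931 and CO.0 of 31873, and Hamp stood at 62.9 and 58.7 in them. OC.1 had 62086, against 19985 in OC.0 and 19398 in OC.2, and Hamp stood at 305.7, 289 and 279. Saa1, a serum amyloid gene that inflammation induces, was at 5045 in CO.1, 389 in CO.0 and 3415 in OC.1.

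**Figure D3:**
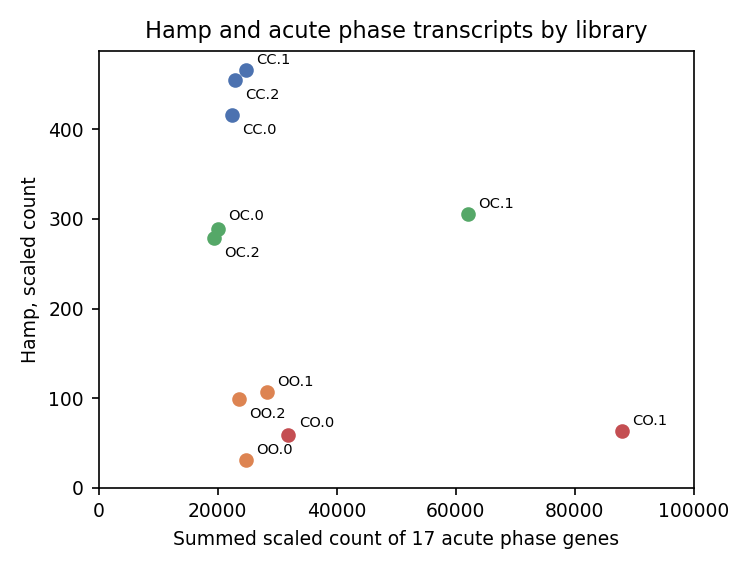
Scaled count of Hamp (vertical axis) against the summed scaled count of 17 acute phase genes (horizontal axis), 1 point per library, coloured by group and labelled by library. CO.1 and OC.1 lie far to the right, at 87931 and 62086, with Hamp at 62.9 and 305.7, beside the other libraries of their groups.

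Ferroportin, the exporter that hepcidin acts on, was lower on the obesogenic offspring diet at the transcript level. Slc40a1 stood at 242, 267 and 221 in CC, 162 and 111 in CO, 276, 235 and 296 in OC and 134, 242 and 197 in OO. Both CO libraries lay below all of CC, and OO.1 overlapped OC. Slc40a1 fell by 0.69 in the average offspring diet effect (SE 0.155, 1.61-fold lower, limma adjusted p = 0.0322). In CO against CC the log2 difference was -0.85 (limma adjusted p = 0.0926), and in OO against OC -0.53 (limma adjusted p = 0.551). The call of the average was lost in 8 of 23 alternatives, among them without CC.0, CC.1, CC.2, CO.1, OC.0 or OC.2, with adjusted p values up to 0.2157. Macrophages are known to express Slc40a1 as well as hepatocytes, and the summed macrophage markers given above were higher in CO and OO than in CC. Their part in the result was not tested. Of the other measured genes in the iron export list, the oxidases Cp and Heph had average effects of -0.06 (limma adjusted p = 0.894) and 0.18 (limma adjusted p = 0.757).

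Iron uptake through transferrin showed no called difference. Tfrc, the transferrin receptor of most cells, stood at 63.1, 42.8 and 35 in CC, 35 and 34.5 in CO, 24.1, 54.3 and 29.1 in OC and 37.4, 24.6 and 34 in OO, with an average offspring diet effect of -0.24 (limma adjusted p = 0.592). Trf, the plasma iron carrier transferrin, stood at 15329, 20165 and 14529 in CC, 16210 and 16866 in CO, 15637, 25504 and 16572 in OC and 14932, 14856 and 15763 in OO. Its average effect was -0.15 (limma adjusted p = 0.806). In the GENCODE M21 annotation 63.5% of the exon bases of Trf are shared with the same-strand gene Gm20425, so its count is uncertain where the authors' counter could split reads.

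Iron import outside the transferrin route differed at 2 of 10 measured import genes. Slc39a14 (Zip14), a carrier of iron not bound to transferrin, stood at 140, 194 and 158 in CC, 324 and 517 in CO, 164, 194 and 185 in OC and 250.2, 262 and 217 in OO. All libraries of sons on the obesogenic diet lay above all libraries of sons on chow. Slc39a14 rose by 1.33 in CO (2.52-fold higher, limma adjusted p = 0.0149) and by 0.88 in the average (1.84-fold higher, limma adjusted p = 0.00523). Steap4, a metalloreductase that reduces iron and copper, stood at 56.3, 78.3 and 46.2 in CC, 363 and 1116 in CO, 67.5, 140.1 and 72.5 in OC and 145, 164 and 210 in OO. Steap4 rose by 3.43 in CO (10.7-fold higher, limma adjusted p = 0.00653) and by 2.19 in the average (4.55-fold higher, limma adjusted p = 0.00244). For OO against OC the log2 difference of Slc39a14 was 0.42 (limma adjusted p = 0.5754). That of Steap4 was 0.95 (limma adjusted p = 0.5535), and neither was called in any of 24 alternatives. DESeq2 called Steap4 lower in OO than in CO (-2.10, DESeq2 adjusted p = 3.97e-04). It also called the interaction of Steap4 (-2.74, DESeq2 adjusted p = 2.77e-04), whereas limma's main fit called neither. Slc39a14 and Steap4 were both highest in CO.1, the library with the highest acute phase level. The averages of both were called in all 23 alternatives. In CO against CC Slc39a14 lost its call in 6 of 24 alternatives, among them without CO.1 (a log2 difference of 0.996), without CC.0 or without CC.2, with adjusted p values up to 0.0926. Steap4 kept its call in CO against CC in all 24 alternatives, but its log2 difference moved to 2.62 with CO.1 left out and to 4.23 with CO.0 left out.

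Storage genes showed small differences. Fth1, the heavy chain of ferritin, stood at 519, 496 and 527 in CC, 478 and 474 in CO, 516, 557 and 589 in OC and 450.1, 563 and 792 in OO. OO spanned a wider range than the other groups, and the average offspring diet effect was -0.01 (limma adjusted p = 0.971). Fth1 has processed copies in the genome that may take some of its reads. Ncoa4, the receptor that delivers ferritin to lysosomes, stood at 65.9, 47.1 and 59.4 in CC, 41.8 and 34.7 in CO, 44.8, 50.3 and 53.9 in OC and 39.6, 36.2 and 38.2 in OO. Ncoa4 fell by 0.48 in the average (1.39-fold lower, limma adjusted p = 0.028), the single called gene of 5 measured storage and chaperone genes. Its call was lost in 8 of 23 alternatives, among them without CC.0, CC.2, CO.1, OC.2, OO.0 or OO.1, with adjusted p values up to 0.1461.

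**Figure D4:**
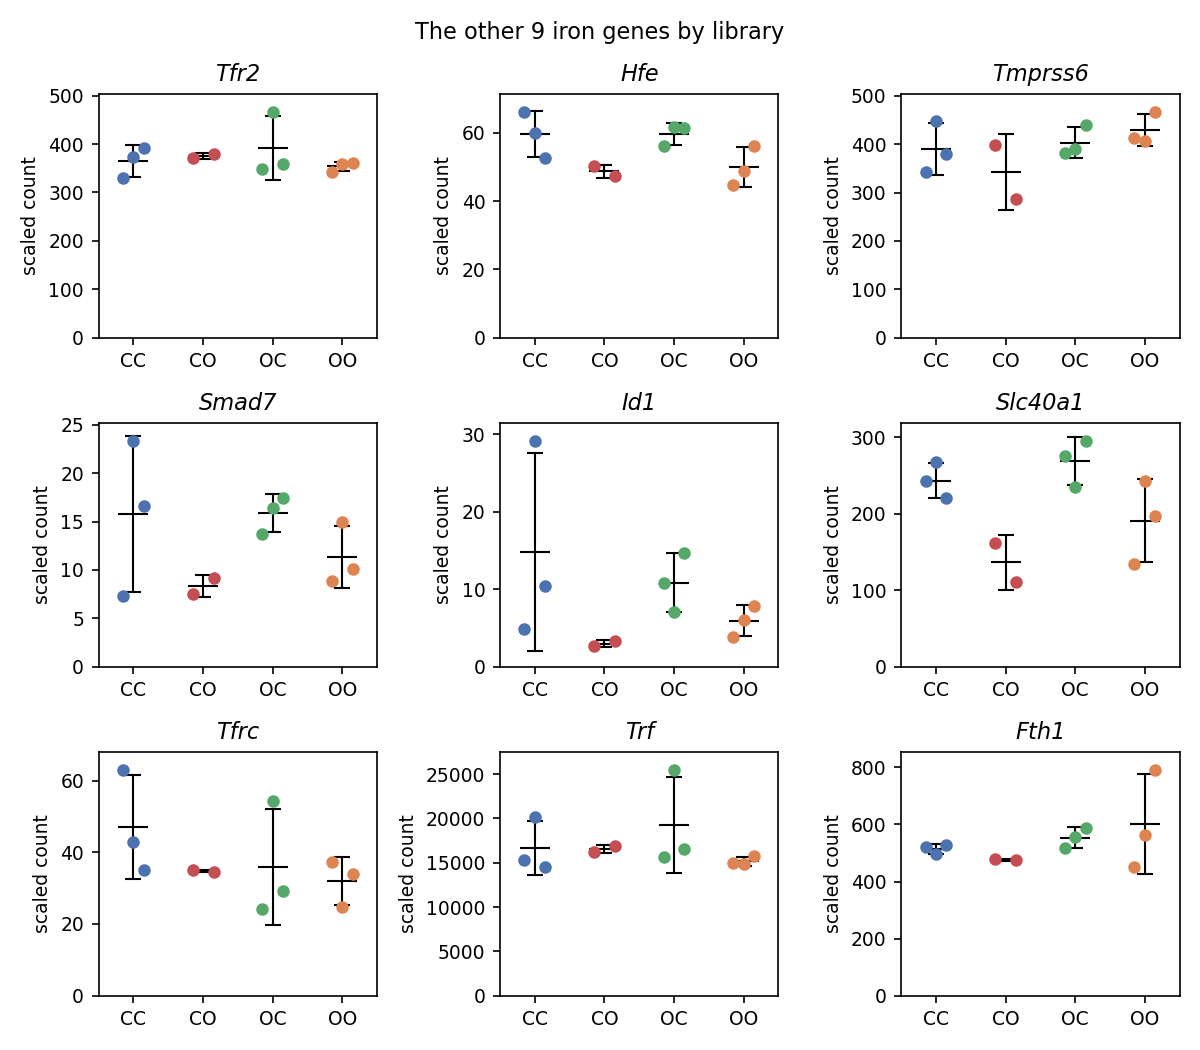
Scaled counts (vertical axes, linear from 0) of Tfr2, Hfe, Tmprss6, Smad7, Id1, Slc40a1, Tfrc, Trf and Fth1 in each library, by group; points are libraries, dashes group means and bars SDs. The CO points of Slc40a1 (162 and 111) lie below its CC points, while those of Tfr2 (370 and 380) lie among its CC points.

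The remaining iron lists held 1 called gene. Cpox, an enzyme of haem synthesis, rose by 0.47 in the average offspring diet effect (1.38-fold higher, limma adjusted p = 0.0173), 1 of 15 measured genes of haem synthesis and breakdown; without CO.1 it was not called, with adjusted p values up to 0.1273. Of 6 genes of haem and haemoglobin uptake limma called 0 in the average (2 at an unadjusted p under 0.05), edgeR called 1 (Cd163) and DESeq2 called 2; the smallest p values were those of Cd163, the macrophage receptor for haemoglobin (log2 difference -0.67, limma adjusted p = 0.0542), and Lrp1, a receptor for haem bound to haemopexin (0.66, limma adjusted p = 0.0857). Of 4 iron regulatory genes limma, edgeR and DESeq2 called 0 in the average (0 at an unadjusted limma p under 0.05), with Epas1 at 0.31 (limma adjusted p = 0.282) and Ireb2 at 0.36 (limma adjusted p = 0.355). Of 17 measured genes of mitochondrial iron and iron-sulphur clusters the 3 tools likewise called 0 (1 at an unadjusted limma p under 0.05), with Fdx1 at 0.24 (limma adjusted p = 0.365). Over all these lists together, which include the members, 112 of 120 genes were measured. In CO against CC 5 of the 112 were called higher and 2 lower (6.25%, beside 1.79% of all genes). In OO against OC the single called gene was Hamp (0.893%), and in the average 7 were called higher and 5 lower (10.7%, beside 3.96% of all genes). The lists were drawn up with results of these data known, so these shares describe the lists and are no test of them.

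**Figure D5:**
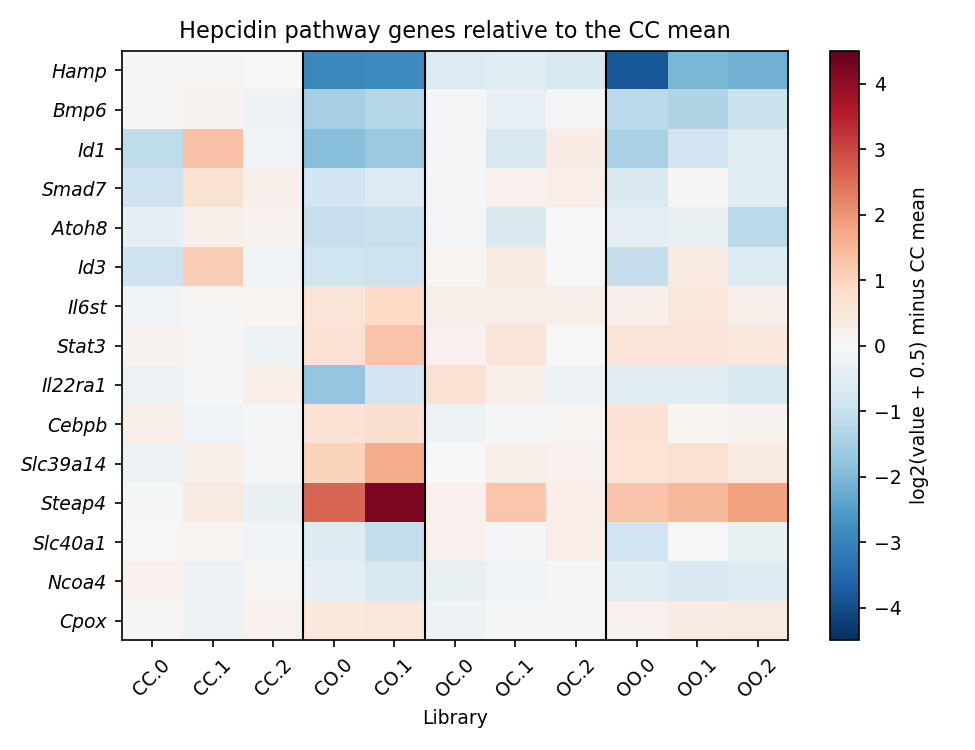
Log2(value + 0.5) of 15 genes of the hepcidin pathway and of iron handling minus the mean of the CC libraries (colour, blue lower and red higher), with the 11 libraries in columns and group borders as black lines. Hamp and Bmp6 are blue in all 5 CO and OO libraries, and Steap4 and Slc39a14 are red in the same 5. Hamp also lies below the CC mean in every OC library (279 to 306 scaled counts), and Steap4 lies above its CC mean in every OC library, furthest in OC.1.

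Per length, with exon lengths from GENCODE M21 on GRCm38, Trf was the most abundant of the 10 transcripts in every group, with group means of 5022 (CC), 4981 (CO), 5795 (OC) and 4573 (OO) scaled counts per kilobase. On these lengths Hamp came next in every group, with 1087 for CC, 148 for CO, 711 for OC and 192 for OO. In CC Hamp thus lay above Fth1 (148), Tmprss6 (116) and Tfr2 (84.2), whereas in CO it lay close to Fth1 (137). A length here is all annotated exon bases of a gene together (410 for Hamp, 3469 for Fth1) and can exceed that of its transcripts. The ranks depend on it. Without division by length, the mean of Fth1 lay above that of Hamp in every group, at 476 against 60.8 in CO and 602 against 78.8 in OO. Slc40a1 stood at 27, 15.2, 29.9 and 21.2 scaled counts per kilobase in CC, CO, OC and OO, and Smad7 was the lowest of the 10 in each group, at 1.84 to 3.51.

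Over the 11 libraries, Pearson's r with Hamp on log2(value + 0.5) was 0.82 for Hfe, 0.81 for Slc40a1, 0.72 for Id1, 0.61 for Smad7, 0.30 for Trf, 0.28 for Tfrc, 0.21 for Tfr2, 0.16 for Fth1 and 0.09 for Tmprss6. Among 9326 ranked genes Hfe stood at rank 79 and Slc40a1 at rank 95. The genes most like Hamp were Prkci (0.953), Htatip2 (0.950), Tm6sf2 (0.944), AI987944 (0.941) and Cbr1 (0.932). Those most unlike it were Xaf1 (-0.952), Zc3hav1 (-0.951), Ccdc157 (-0.941), Rnf213 (-0.938) and Rtp4 (-0.938). These values describe the libraries, which share their groups, and carry no test.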

How the data were processed

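The labels list 12 livers, 3 per group, and the table used here has 11 columns, whose names give the group of a library and no number that links it to a labelled animal. Values that the authors deposited are a signal: the values behave as counts per gene over a single library factor, and a library's values sum to 929699 to 1099404. Between 95.61% and 97.34% of the values of a library were whole multiples of 1 read (tolerance 0.01 reads); for 5 of the 11 columns the whole reads also passed a stricter check, so tests on recovered reads are alternatives only. Bowtie 1.2.3 and mm8 are named, per the submitters' processing notes; the sources used here give no counter, annotation or strand setting.

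Symbols matched 11965 of 12086 Ensembl identifiers (GENCODE M21). The test was limma 3.58.1 in R 4.3.3 with an intensity trend and 4 group means, run over the 11 libraries on log2 values after adding 0.5 (7 residual and 4.66 prior degrees of freedom) and Benjamini-Hochberg adjustment over all genes in each of 7 comparisons. The design had assumed 12 libraries and CPM. A value of 1 in 3 libraries was required, which all 12086 genes met. Fold changes on this scale understate those of low genes, and p-values measure the spread between these libraries. Counts of CO rest on 2 libraries. Depth limits low genes: 1 read is worth 0.0334 to 0.276.

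The members and lists were chosen with earlier results of these data known. Named genes are the 10 members, Hamp2, each called gene of the iron and BMP lists (otherwise the 2 with the smallest p in the average offspring diet effect), and the 5 genes most like and the 5 most unlike Hamp (mean of at least 5); other genes named with values, such as Bmp2, Inhbe and Saa1, were chosen after their values were seen. Some listed genes are not reported here by name, though the lists' counts include them. Alternatives were pseudocounts of 0.1 and 2, a minimum of 5, no filter, edgeR 4.0.16 and DESeq2 1.42.0 on recovered reads, other scalings, only the groups compared, array weights, and libraries left out. Code was tested on simulated data.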

Additional observations from a re-analysis of the deposited data

How the results depend on the processing

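No paired analysis was possible because the column names carry no number that the labels share between groups. The fall of Hamp in the average offspring diet effect was called in all 23 alternatives, with log2 differences from -2.78 to -2.18 and adjusted p values up to 0.0158. In CO against CC it was not called without CO.1 (-2.91) or with OC.0 or OC.1 left out beside CO.1 (-2.91 in each, adjusted p 0.0801 and 0.0706); leaving out single libraries gave -2.91 to -2.81. In OO against OC it was not called by edgeR (-1.90, adjusted p 0.0584), in the groups compared alone (-2.07, 0.1501), with Hamp2 summed in (-1.95, 0.0611), or with the same pairs left out (-2.07 with OC.0 and -2.03 with OC.1; 0.2381 and 0.1246), while DESeq2 called it (2.07e-06). Leaving out single libraries gave -2.38 to -1.50 there, and the call was lost without any single CC, CO or OC library, with adjusted p values up to 0.2285 (without OC.0). The interaction of Hamp ran from 0.48 to 1.36 when single libraries were left out and was called only without OO.0 (1.36). Of the 10 members, DESeq2 called 3 in CO against CC (Hamp, Id1 and Slc40a1), and 0 to 1 were called when single libraries were left out and 0 with either pair left out. In OO against OC 0 were called by edgeR, in the groups compared alone, with Hamp2 summed in and with either pair left out, and 0 to 1 when single libraries were left out. In the average, 1 to 3 were called when single libraries were left out (3 without CC.0: Hamp, Id1 and Smad7) and 1 with either pair left out, and in the interaction 0 to 1 when single libraries were left out. The cause was not tested. No called value changed sign. Precision is limited by 2 CO libraries and, for Bmp6, Id1 and Hamp2, by counts down to 8, 15 and 3 reads.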
